A study of Mus musculus with 6 samples.

Results

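The DNA replication and S-phase genes described here are 49 genes of the replication machinery and its regulators, chosen by symbol among the 25124 genes listed. They were followed in RAW264.7 cells, a mouse macrophage-like line, by RNA sequencing of poly(A) RNA in 3 M2 libraries (cultured with 10 ng/ml IL-4, the cytokine that drives alternative macrophage activation) and 3 M0 libraries (cultured without IL-4). All 6 libraries came from a control line that had received a Cas9 plasmid lacking a guide RNA, made as the counterpart of an E4BP4 knockout line. Cells of both groups grew in medium with 25 mM glucose and 10% serum, had been passaged fewer than 15 times, and gave 200 ng of total RNA per library. How long IL-4 was applied is not stated. The labels do not say that replicates were separate cultures, and p-values then reflect the spread among these libraries alone, which may be technical. The titles of the M0 libraries alone carry a note of re-analysis, and IL-4 cannot be told apart from any batch to which that note belongs.

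Eukaryotic cells copy their genome once per cycle in an ordered series of steps. The origin recognition complex (ORC), CDC6 and CDT1 load the ring-shaped MCM2-7 helicase onto DNA during G1. Cyclin E with CDK2 and the CDC7-DBF4 kinase then turn the loaded rings into active helicases by adding CDC45 and the GINS complex. Polymerases α, δ and ε copy the strands, held by the sliding clamp PCNA that the RFC complex loads, and many of the genes involved are activated by E2F factors at the G1 to S transition. RAW264.7 cells divide in culture.

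All 49 genes passed the filter on low values, a TPM (an abundance scaled for transcript length and sequencing depth) of at least 1 in at least 3 libraries. At an adjusted p under 0.05 from limma, 17 of 49 rose in M2 and 3 fell, while 29 did not pass. Over all 11202 genes tested, 20.1% were called higher and 23.7% lower, 43.7% in either direction. The matching shares of the 49 genes were 34.7% higher and 6.12% lower. Their log2 fold changes on log2(TPM + 1) lay between -0.31 and 0.84 with a median of 0.09, beside a median of -0.03 over all genes tested. In 20 genes every M2 library lay above every M0 library, and in 8 every M2 library lay below, where 25.1% and 30.8% of all tested genes did so. The changes were small, and Orc2 was the gene with the largest fold. In bulk RNA, a different share of cells in S phase and a different amount of RNA per cell cannot be told apart.

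**Figure D1:**
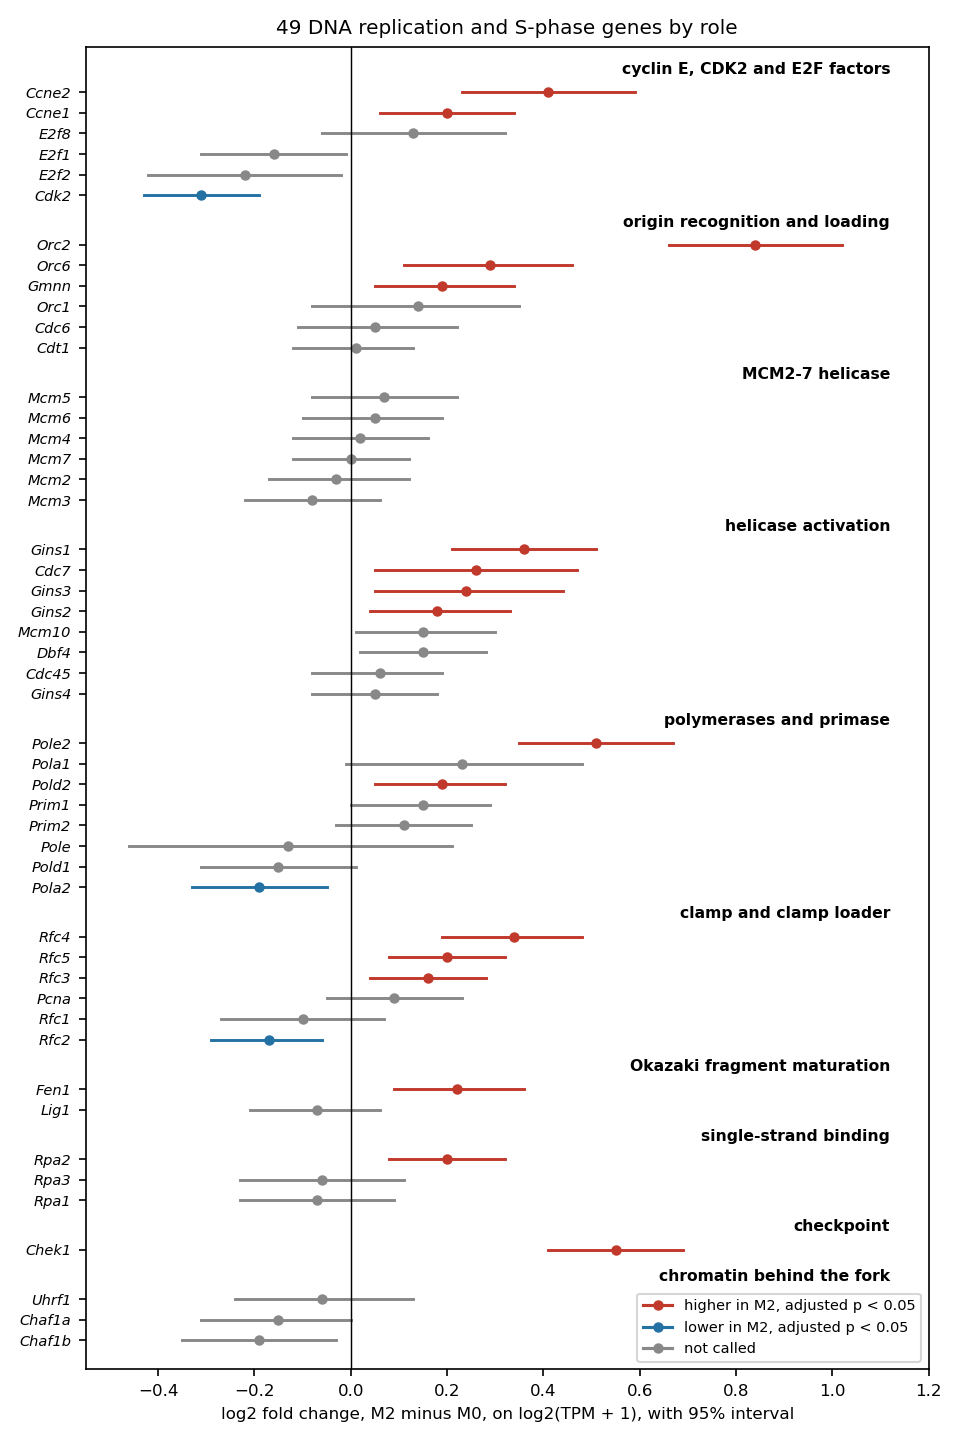
Log2 fold changes, M2 minus M0, on log2(TPM + 1) for the 49 genes in 10 role groups, with 95% intervals from limma over 3 libraries a group. Red points passed as higher and blue points as lower at an adjusted p under 0.05, and grey points did not pass. Orc2 stands farthest to the right at 0.84, and the 6 MCM2-7 subunits lie between -0.08 and 0.07.

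The promoters of 5 genes are shown because they set the genes that moved most beside a gene that did not pass and whose promoter is rich in E2F-type letters. Chek1, Pole2 and Rfc4 are the called genes with the largest changes among those with such a motif. Orc2 is the largest without one in the window searched. Mcm6, chosen after its matches were seen, is the MCM2-7 subunit with the most matches. Each sequence is the RefSeq window of GRCm38.p6 from 250 bases before to 50 bases after the transcription start, 5′ to 3′ on the gene's own strand, which is the minus strand for all 5. Their positions are chr9:36726609-36726908 for Chek1, chr12:69228141-69228440 for Pole2, chr16:23127681-23127980 for Rfc4, chr1:58505060-58505359 for Orc2 and chr1:128359656-128359955 for Mcm6. Capitals mark every match to TTTCGCGC, TTTGGCGC, TTCCCGCC or GGCGCGAA on either strand, so that GGCGGGAA and GCGCCAAA are matches on the other strand.
Chek1: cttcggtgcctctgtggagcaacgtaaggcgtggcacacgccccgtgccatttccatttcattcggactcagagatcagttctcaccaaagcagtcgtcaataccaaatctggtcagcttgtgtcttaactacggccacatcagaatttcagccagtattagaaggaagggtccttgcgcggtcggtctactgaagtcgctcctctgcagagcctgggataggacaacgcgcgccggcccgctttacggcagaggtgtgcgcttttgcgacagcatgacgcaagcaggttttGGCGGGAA
Pole2: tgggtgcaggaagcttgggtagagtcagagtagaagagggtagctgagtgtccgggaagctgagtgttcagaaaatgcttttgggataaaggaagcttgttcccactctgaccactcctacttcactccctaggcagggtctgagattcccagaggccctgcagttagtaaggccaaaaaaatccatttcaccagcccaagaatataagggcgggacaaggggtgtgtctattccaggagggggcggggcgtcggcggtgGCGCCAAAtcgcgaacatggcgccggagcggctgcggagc
Rfc4: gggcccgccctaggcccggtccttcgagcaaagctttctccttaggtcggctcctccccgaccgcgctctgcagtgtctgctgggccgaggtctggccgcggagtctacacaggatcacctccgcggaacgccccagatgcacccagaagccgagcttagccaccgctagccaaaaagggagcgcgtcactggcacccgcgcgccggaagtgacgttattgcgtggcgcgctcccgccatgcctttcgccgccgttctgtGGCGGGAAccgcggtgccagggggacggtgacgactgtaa
Orc2: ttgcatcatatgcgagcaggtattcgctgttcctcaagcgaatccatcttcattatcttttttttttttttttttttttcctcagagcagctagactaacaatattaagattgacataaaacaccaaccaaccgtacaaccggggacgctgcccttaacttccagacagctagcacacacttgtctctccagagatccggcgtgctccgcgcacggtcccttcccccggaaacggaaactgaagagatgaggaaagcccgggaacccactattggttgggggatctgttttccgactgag
Mcm6: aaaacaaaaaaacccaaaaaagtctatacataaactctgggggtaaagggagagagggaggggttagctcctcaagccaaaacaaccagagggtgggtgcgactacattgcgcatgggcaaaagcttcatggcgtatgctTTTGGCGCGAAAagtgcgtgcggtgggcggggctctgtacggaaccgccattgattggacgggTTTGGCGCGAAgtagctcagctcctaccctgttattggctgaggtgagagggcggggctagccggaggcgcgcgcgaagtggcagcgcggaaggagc

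All 4 motifs were searched on both strands, and TTTCGCGC, TTTGGCGC and GGCGCGAA overlap one another at shared sites. A window was listed for 40 of the 49 genes, and 16 of these (40.0%) held at least 1 of the E2F-type motifs, against 607 of 8729 windows of all tested genes (6.95%). By call, they were present in 4 of 13 genes that rose, 0 of 2 that fell and 12 of 25 that did not pass. Mcm3, Mcm5, Mcm6 and Mcm7 were among those 12. The CCAAT box, searched as CCAAT, was in 25 of the 40 windows (62.5%, against 39.5% of tested genes). The element TTTGAA of late cell cycle promoters was in 7 (17.5%, against 11.9%) and the Sp1-type box GGGCGG in 29 (72.5%, against 65.9%). Where a gene had several windows, only the one farthest 5′ was searched. For 7 of the 40 genes, Orc2 included, the window's start lay more than 100 bases from the start of the transcript model the authors used. Orc2 had 2 windows, and the one searched lay 3683 bases from that start. Its sequence may therefore not be the promoter of the transcript counted. A match describes letters in this window and is no evidence of binding.

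Among the regulators of S-phase entry, both cyclin E genes rose and the kinase gene they activate fell. Ccne2, encoding cyclin E2 (chr4:11191709-11204779 in mm10), had 30.5, 36.4 and 30.7 TPM in the M2 libraries, against 24.0, 25.0 and 23.4 TPM in the M0 libraries. Each M2 value lay above all 3 M0 values, with a log2 fold change of 0.41 ± 0.080 (SE, adjusted p = 0.00325). Ccne1, encoding cyclin E1, was 1.15-fold higher, at 31.4 ± 1.32 TPM in M2 and 27.2 ± 0.919 TPM in M0 (SD, n = 3 each), also without overlap (adjusted p = 0.0291).

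Cdk2 (chr10:128697939-128705051), the catalytic partner of cyclin E, had 31.1, 31.6 and 31.4 TPM in the M2 libraries, against 38.4, 40.1 and 38.7 TPM in the M0 libraries. The M2 libraries were nearly equal to each other and all below the M0 libraries, with a log2 fold change of -0.31 ± 0.055 (SE, adjusted p = 0.00206). Its fold of 0.80 had a 95% interval of 0.74 to 0.88, and among the 49 genes it was the largest fall. E2f1, an activating E2F factor, had 40.1, 38.1 and 35.8 TPM in the M2 libraries, against 40.2, 43.3 and 44.1 TPM in the M0 libraries. All M2 values lay below the M0 values, yet the log2 fold change of -0.16 ± 0.066 (SE, adjusted p = 0.0801) did not pass. E2f2, a second activating factor, stood at a log2 fold change of -0.22 (adjusted p = 0.0670), and the repressor E2f8 at 0.13 (adjusted p = 0.226). With the trend on transcript length removed, E2f1 and E2f2 passed as lower (adjusted p = 0.0392 and 0.0210) and E2f8 as higher (adjusted p = 0.0153). With the replicate number as a block beside that correction, E2f1 did not pass (adjusted p = 0.0604). Summed over these 6 genes, the level was 177 ± 8.32 TPM in M2 and 177 ± 6.08 TPM in M0.

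Origin recognition held the gene that moved most. Orc2, a subunit of the ORC that binds origins (chr1:58462771-58501426), had 70.4, 77.0 and 63.0 TPM in the M2 libraries, against 37.0, 41.2 and 37.7 TPM in the M0 libraries. The lowest M2 library, at 63.0 TPM, was far above the highest M0 library, at 41.2 TPM, and the log2 fold change was 0.84 ± 0.081 (SE, adjusted p = 8.25e-05). Its mean was 1.82-fold that of M0, with a 95% interval of 1.58 to 2.03. Exons of Orc2 overlap Nif3l1, a gene on the opposite strand, over 854 bases, 24.0% of Orc2's exon length in the GENCODE annotation. Nif3l1 itself had 36.9, 40.4 and 37.1 TPM in the M2 libraries, against 25.5, 26.3 and 25.0 TPM in the M0 libraries. The transcript models behind these TPM values do not overlap: that of Nif3l1 ends at chr1:58462276 and that of Orc2 begins at chr1:58462771. No source used here states the strand setting of the counting, so reads of the 2 genes cannot be separated in the stretch shared in GENCODE. The part of this overlap in the rise of Orc2 was not tested.

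Orc6, the ORC subunit least like the others in sequence, had 54.3, 57.1 and 59.9 TPM in the M2 libraries, against 52.1, 43.9 and 44.2 TPM in the M0 libraries. M0 replicate 1 came within a few TPM of the M2 libraries, the groups did not overlap, and the log2 fold change was 0.29 ± 0.078 (SE, adjusted p = 0.0161). Orc1, the largest ORC subunit, was the member with the fewest reads, at least 315 in each library, and its log2 fold change of 0.14 ± 0.095 (SE, adjusted p = 0.270) did not pass. The other ORC genes, from a list of replication factors outside the 49, also rose, with log2 fold changes of 0.52 for Orc5 (adjusted p = 0.000428), 0.43 for Orc4 (adjusted p = 0.00238) and 0.29 for Orc3 (adjusted p = 0.0237). This made 5 of the 6 ORC genes higher in M2 (83.3%, beside 20.1% of all tested genes). The grouping was chosen after the values were seen.

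**Figure D2:**
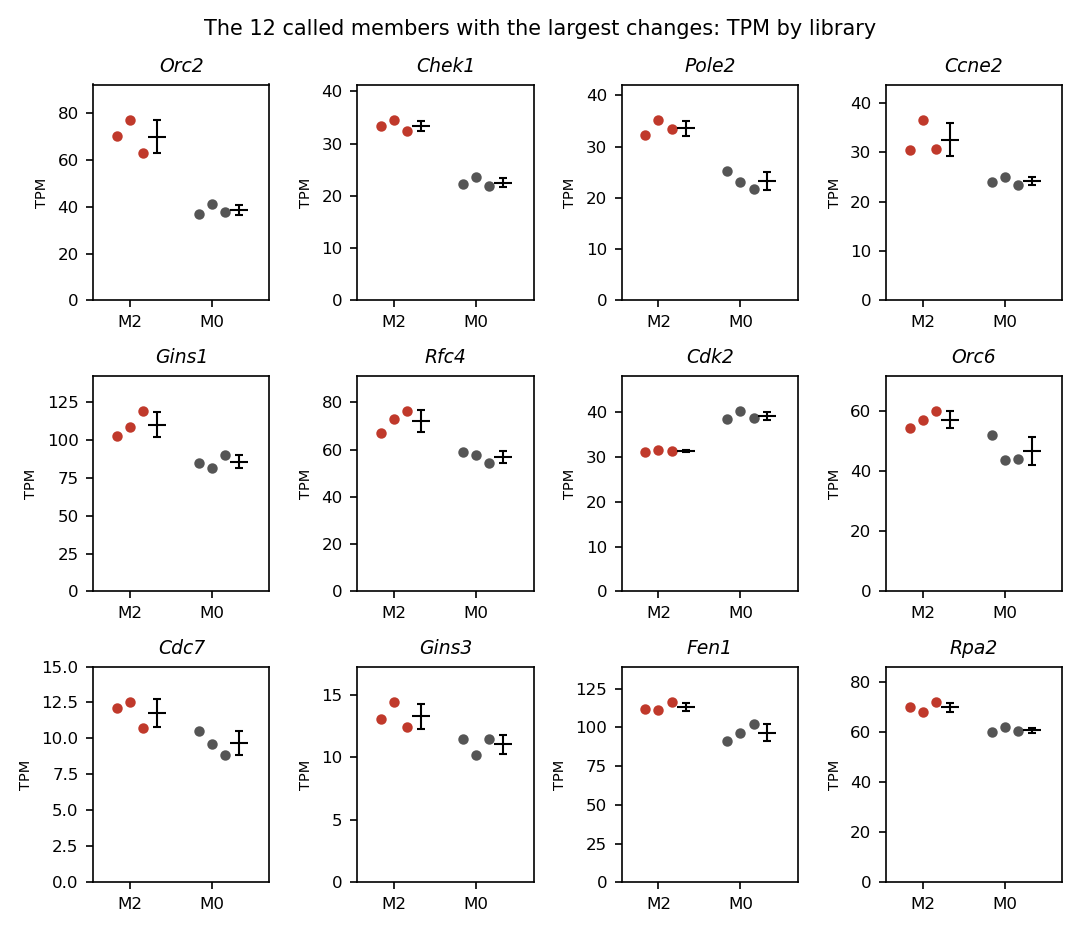
TPM in each library for the 12 called genes with the largest changes in size, M2 left of M0 in each panel, with the mean and SD of 3 libraries beside the points. Every TPM axis starts at 0. In all 12 panels the groups do not overlap, and only Cdk2 is lower in M2, at 31.1 to 31.6 TPM against 38.4 to 40.1 TPM in M0. The 12 genes were selected by their calls in these same libraries, so the separation is no added evidence.

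Cdc6 and Cdt1, which act with the ORC in loading the helicase, did not pass, and the gene for the inhibitor of CDT1 rose. Cdc6, the ATPase that joins ORC at the origin, had 14.5, 14.6 and 13.7 TPM in the M2 libraries, against 12.9, 14.1 and 14.2 TPM in the M0 libraries. Cdt1, the factor that brings the MCM ring, had 70.9, 69.8 and 68.4 TPM in the M2 libraries, against 66.7, 69.1 and 72.4 TPM in the M0 libraries. The groups overlapped for both, and the 95% intervals of their folds ran from 0.92 to 1.16 for Cdc6 and 0.92 to 1.09 for Cdt1. Gmnn, encoding geminin, which binds CDT1 and blocks reloading, had 103, 107 and 118 TPM in the M2 libraries, against 97.8, 94.3 and 93.3 TPM in the M0 libraries. Its M2 libraries lay above all M0 libraries and the log2 fold change was 0.19 ± 0.063 (SE, adjusted p = 0.0340), a call that was lost when any 1 M0 library was left out (highest adjusted p over all alternatives 0.116). Cdc6 has a processed pseudogene that is 95.223% identical over 1528 bases, and its counts may share reads with it.

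The MCM2-7 helicase did not pass in either direction. By limma 0 of 6 subunits passed, also 0 at an unadjusted p under 0.05 and 0 by limma-voom. Mcm2 had 157, 159.5 and 139.6 TPM in the M2 libraries, against 149.7, 155 and 159 TPM in the M0 libraries. Mcm3 had 137, 139.7 and 135 TPM in the M2 libraries, against 135, 151 and 151 TPM in the M0 libraries. In both the M2 and M0 ranges overlapped.

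Mcm4, the subunit with the lowest level of the 6 per unit length, had 52.3, 56.1 and 56.0 TPM in the M2 libraries, against 50.9, 54.7 and 57.0 TPM in the M0 libraries. Mcm5 had 153, 155 and 134 TPM in the M2 libraries, against 136, 143 and 141 TPM in the M0 libraries. For Mcm5, M2 replicate 3 lay below all M0 libraries while the other two M2 libraries lay above them.

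Mcm6, the most abundant of the 6, had 209, 228 and 216 TPM in the M2 libraries, against 196, 222 and 214 TPM in the M0 libraries. Mcm7 had 100.4, 101 and 95.4 TPM in the M2 libraries, against 96.8, 101 and 99.3 TPM in the M0 libraries. The log2 fold changes of the 6 subunits lay between -0.08 for Mcm3 and 0.07 for Mcm5. The 95% intervals of the 6 folds all lay between 0.86 and 1.16. The summed level of the 6 subunits was 808 ± 31.8 TPM in M2 and 804 ± 34.8 TPM in M0 (SD, n = 3 each). Mcm5 alone passed under some alternatives, as higher with the length trend removed (adjusted p = 0.0311) and without M2 replicate 3 (adjusted p = 0.0386). Mcm7 has a processed pseudogene that is 97.682% identical over 2157 bases.

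**Figure D3:**
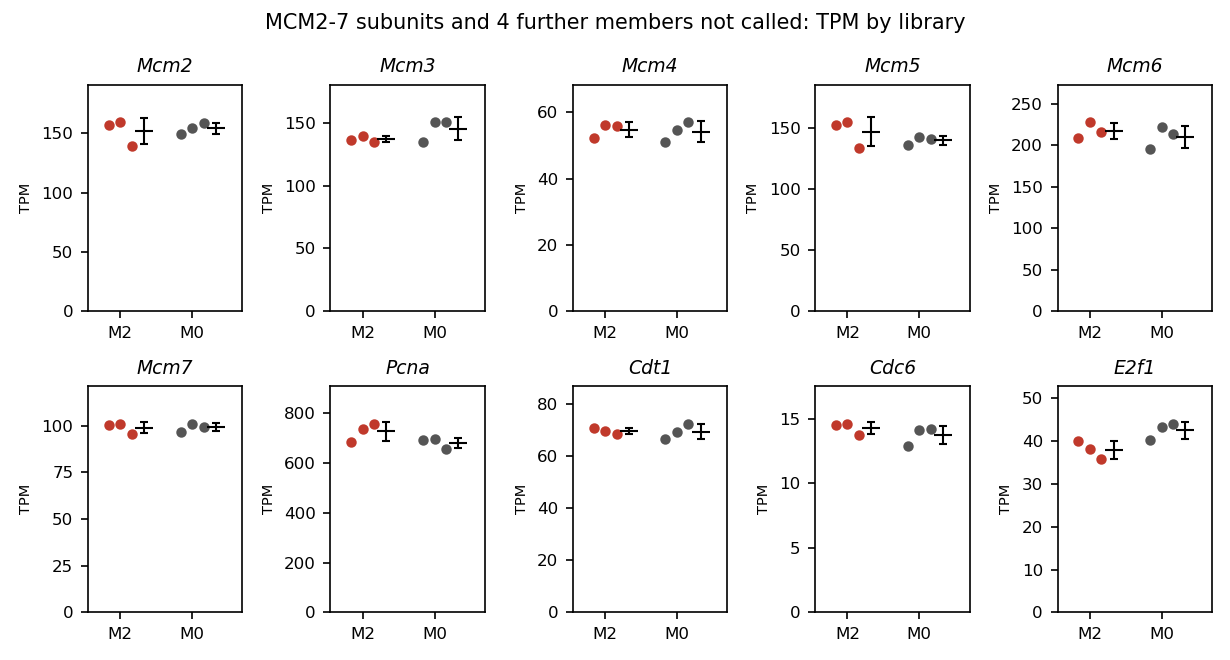
TPM in each library for the 6 MCM2-7 subunits and for Pcna, Cdt1, Cdc6 and E2f1, M2 left of M0, with the mean and SD of 3 libraries. Every TPM axis starts at 0. The groups overlap in every panel except E2f1, where the M2 libraries (35.8 to 40.1 TPM) lie below the M0 libraries (40.2 to 44.1 TPM), and none of the 10 genes passed.

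Among the 8 genes that turn the loaded ring into a working helicase, 4 rose and every log2 fold change was positive. Gins1, encoding the PSF1 subunit of the GINS complex, had 103, 109 and 119 TPM in the M2 libraries, against 84.7, 81.9 and 90.5 TPM in the M0 libraries. All M2 values lay above all M0 values, with a log2 fold change of 0.36 ± 0.068 (SE, adjusted p = 0.00290). Gins3, encoding the PSF3 subunit, had 13.1, 14.4 and 12.4 TPM in the M2 libraries, against 11.5, 10.2 and 11.5 TPM in the M0 libraries. The groups were close but did not overlap, and the log2 fold change was 0.24 ± 0.085 (SE, adjusted p = 0.0444).

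Cdc7, the kinase that phosphorylates the MCM ring, had 12.1, 12.5 and 10.7 TPM in the M2 libraries, against 10.5, 9.65 and 8.83 TPM in the M0 libraries. The lowest M2 library was just above the highest M0 library, at a log2 fold change of 0.26 ± 0.092 (SE, adjusted p = 0.0462). Gins2, encoding the PSF2 subunit, was 1.14-fold higher without overlap, a log2 fold change of 0.18 ± 0.065 (SE, adjusted p = 0.0474). Gins2 was the weakest call of the 49 genes: it passed in 4 of 16 alternatives. Of its exon length in the GENCODE annotation, 70.7% (2758 of 3900 bases) is shared with Gse1 on the other strand. The transcript model behind its TPM has 1031 bases and spans chr8:120581266-120589075, and the model of Gse1 ends at chr8:120581383. The models thus overlap only at their ends. The fourth GINS subunit gene, Gins4, stood at a log2 fold change of 0.05 (adjusted p = 0.502) with overlapping groups. Dbf4, the regulatory partner of CDC7, and Mcm10, which helps open the activated helicase, had M2 libraries wholly above M0 at log2 fold changes of 0.15 and 0.15 but missed the threshold (adjusted p = 0.0635 and 0.0863). Both passed in 6 of 16 alternatives. Cdc45, the third component of the active helicase, was at a log2 fold change of 0.06 (adjusted p = 0.472). The summed level of the 8 genes was 358 ± 9.28 TPM in M2 and 311 ± 5.00 TPM in M0.

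Of the 8 polymerase and primase genes, 2 rose and 1 fell, 25.0% and 12.5% beside 20.1% and 23.7% of all tested genes. Pole2 (chr12:69201779-69228190), the second subunit of the leading-strand polymerase ε, had 32.2, 35.1 and 33.5 TPM in the M2 libraries, against 25.2, 23.1 and 21.7 TPM in the M0 libraries. The groups were well separated, the log2 fold change was 0.51 ± 0.072 (SE, adjusted p = 0.000651) and the fold 1.44 (95% interval 1.27 to 1.60). Pole, the catalytic subunit of the same enzyme, averaged 9.62 ± 2.15 TPM in M2 and 10.5 ± 0.998 TPM in M0 (SD, n = 3 each), a log2 fold change of -0.13 ± 0.15 (SE, adjusted p = 0.507) that did not pass. M2 replicate 3 was the lowest library for Pole, at 7.15 TPM, and without it the log2 fold change was 0.05. Pold2, the second subunit of polymerase δ, rose to 56.6 ± 2.25 TPM in M2, against 49.7 ± 2.10 TPM in M0 (SD, n = 3 each), a log2 fold change of 0.19 (adjusted p = 0.0320). Pold1, its catalytic subunit, stood at a log2 fold change of -0.15 (adjusted p = 0.113) with every M2 library below every M0 library. Whether second and catalytic subunits differed from each other was not tested.

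Polymerase α-primase starts each new strand. Pola2, its regulatory subunit gene, fell to 46.6 ± 2.88 TPM in M2, against 53.2 ± 1.08 TPM in M0 (SD, n = 3 each), a log2 fold change of -0.19 ± 0.062 (SE, adjusted p = 0.0353). This call for Pola2 was kept in 8 of 16 alternatives, and its adjusted p in the authors' own comparison is 0.0929. The catalytic gene Pola1 was at a log2 fold change of 0.23 (adjusted p = 0.110), Prim1 for the small primase subunit at 0.15 (adjusted p = 0.102) and Prim2 for the large one at 0.11 (adjusted p = 0.179). With the length trend removed Pola1, whose transcript model of 5308 bases is among the longest, passed as higher (log2 fold change 0.32, adjusted p = 0.00145).

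At the sliding clamp, 3 of the 5 loader genes rose, 1 fell, and the clamp itself did not pass. Pcna (chr2:132249286-132253180), the clamp that tethers the polymerases, had 683, 736 and 756 TPM in the M2 libraries, against 690.0, 693 and 654 TPM in the M0 libraries. It was the most abundant of the 49 genes per unit length, its groups overlapped, and the 95% interval of its fold was 0.97 to 1.18. Reads of Pcna may be shared with a processed pseudogene that is 99.232% identical over 781 bases.

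Rfc4, a small subunit of the clamp loader, had 67.2, 73.0 and 76.1 TPM in the M2 libraries, against 58.8, 57.5 and 54.2 TPM in the M0 libraries. The groups did not overlap, and the log2 fold change was 0.34 ± 0.064 (SE, adjusted p = 0.00310). Rfc4 shares 175 exon bases (13.4% of its exon length in the GENCODE annotation) with Eif4a2 on the opposite strand. Eif4a2 had 109, 115 and 109.7 TPM in the M2 libraries, against 77.3, 77.9 and 75.1 TPM in the M0 libraries. The part of that overlap in the rise of Rfc4 was not tested. On the log2 scale Rfc5 rose by 0.20 (adjusted p = 0.0168) and Rfc3 by 0.16 (adjusted p = 0.0379), both with M2 wholly above M0. Reads of Rfc5 may be shared with a processed pseudogene that is 96.176% identical over 1020 bases. Rfc2, another small subunit, fell to 62.6 ± 0.279 TPM in M2, against 70.7 ± 1.48 TPM in M0 (SD, n = 3 each), a log2 fold change of -0.17 ± 0.050 (SE, adjusted p = 0.0209). Rfc1, the large subunit that is particular to the replication form of the loader, stood at a log2 fold change of -0.10 (adjusted p = 0.307). Subunits of a single complex passed in opposite directions in these libraries, and the calls for Rfc3 and Rfc2 were each lost in 7 of 16 alternatives. In the authors' own comparison neither passes (adjusted p = 0.0583 for Rfc3 and 0.164 for Rfc2).

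Behind the fork, Fen1, the flap nuclease that trims Okazaki fragments, had 112, 111 and 116 TPM in the M2 libraries, against 91.1, 96.6 and 102 TPM in the M0 libraries. M2 lay above M0 throughout, with a log2 fold change of 0.22 ± 0.059 (SE, adjusted p = 0.0146). An annotated antisense transcript covers 78.8% of the exon length of Fen1 in the GENCODE annotation, and its reads cannot be told from those of Fen1. Lig1, the ligase that seals the fragments, was at a log2 fold change of -0.07 (adjusted p = 0.329).

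Of the 3 genes for RPA, the complex that coats single-stranded DNA, Rpa2 rose. It had 70.0, 68.1 and 72.0 TPM in the M2 libraries, against 60.0, 62.0 and 60.4 TPM in the M0 libraries. All M2 values exceeded all M0 values, with a log2 fold change of 0.20 ± 0.052 (SE, adjusted p = 0.0135). Rpa1 and Rpa3 had overlapping groups at log2 fold changes of -0.07 and -0.06 (adjusted p = 0.445 and 0.534).

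Chek1 (chr9:36708482-36726658), encoding the checkpoint kinase CHK1 that restrains origin firing when forks stall, had 33.3, 34.4 and 32.4 TPM in the M2 libraries, against 22.2, 23.6 and 21.8 TPM in the M0 libraries. The libraries of each group lay close together and the groups were far apart. The log2 fold change was 0.55 ± 0.062 (SE, adjusted p = 0.000204), a fold of 1.48 (95% interval 1.33 to 1.61). It was the second largest change of the 49 genes.

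The 3 genes that act on chromatin behind the fork did not pass by limma (0 of 3, with 1 at an unadjusted p under 0.05 and 0 by limma-voom). Chaf1b, a subunit of the histone chaperone CAF-1, came closest with a log2 fold change of -0.19 ± 0.069 (SE, adjusted p = 0.0519), with M2 wholly below M0. Chaf1a, its partner, stood at a log2 fold change of -0.15 (adjusted p = 0.105) and Uhrf1, which recruits the maintenance DNA methyltransferase, at -0.06 (adjusted p = 0.613). With the length trend removed both CAF-1 genes passed as lower (adjusted p = 0.0415 for Chaf1a and 0.0225 for Chaf1b), but Chaf1a did not when the replicate number was added as a block (adjusted p = 0.0628). Uhrf1 has a processed pseudogene that is 98.302% identical over 1590 bases.

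Transcript length moved with the differences between libraries of a group. The deviation of each library from the other libraries of its group was set against the length of the transcript model. Across the 49 genes Spearman's rho of this deviation with length was 0.64, 0.62 and -0.78 in M2 replicates 1, 2 and 3. In M0 replicates 1, 2 and 3 it was -0.64, 0.66 and 0.21. Over the 11202 tested genes the largest in size was -0.61, again in M2 replicate 3, which was the lowest M2 library for 28 of the 49 genes, as M0 replicate 1 was the lowest M0 library for 28. For the difference M2 minus M0 itself, rho with length was -0.28 across the 49 genes and -0.11 over all tested genes. These values describe libraries, and genes are not independent replicates. The 17 genes that rose had a median model length of 1717 bases, the 3 that fell 2279 and the 29 that did not pass 3024. Correcting each library for length left all 17 higher and all 3 lower calls in place. It added 5 higher (Dbf4, E2f8, Mcm10, Mcm5, Pola1) and 4 lower (Chaf1a, Chaf1b, E2f1, E2f2). Over all tested genes the same correction took the higher calls from 2248 to 3212 and the lower calls from 2651 to 2994, so added calls were not particular to the 49 genes.

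**Figure D4:**
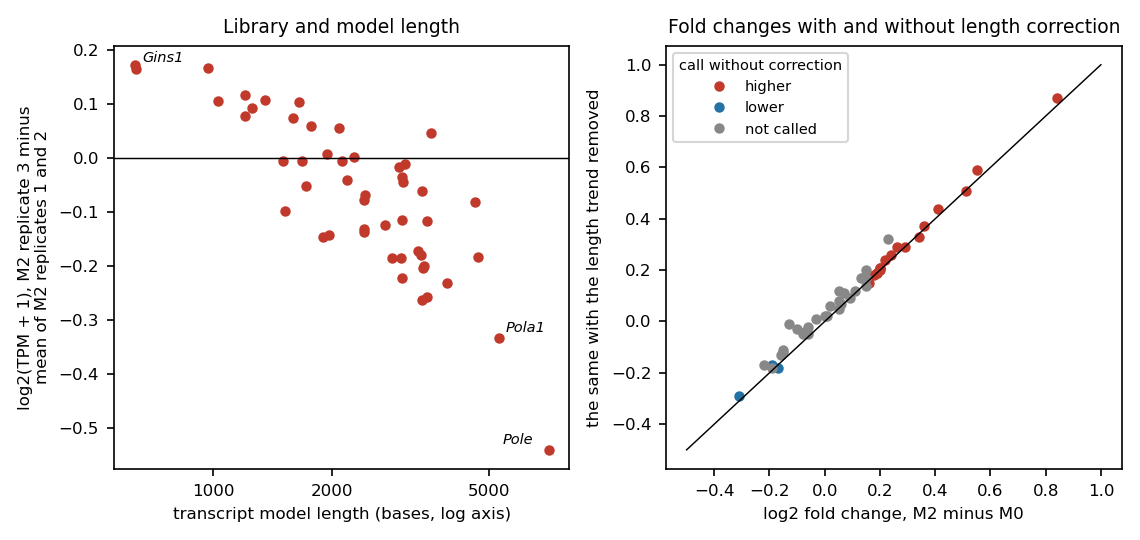
Left, the difference in log2(TPM + 1) between M2 replicate 3 and the mean of the other two M2 replicates against transcript model length on a log axis, 1 point per gene for the 49 genes. Right, log2 fold changes, M2 minus M0, without (x axis) and with (y axis) the length trend removed, where the line marks equality. Short models such as Gins1 lie above 0 on the left and the longest, Pole, lies lowest, while on the right the called genes stay close to the line.

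The number of calls changed when single libraries were left out, which also leaves fewer samples. The count of genes that rose was 10 without M2 replicate 2, 11 without M0 replicate 1, 8 without M0 replicate 2 and 8 without M0 replicate 3, against 17 with all libraries. Over all tested genes the higher calls without 1 M0 library were 1646 to 1718, against 2248 with all libraries. Leaving out any 1 of the M0 libraries left 1 of the 3 falls, that of Cdk2. Orc2, Chek1, Pole2, Ccne2, Gins1, Rfc4 and Cdk2 passed under all 16 alternatives tried, and the other 13 called genes did not. Beside the overlaps given above, Ccne2, Orc6, Pole2, Rfc2 and Rfc5 share between 7.14% and 19.1% of their GENCODE exon length with a neighbouring gene. That gene is on the same strand for Pole2 and on the opposite strand for the others. The authors' transcript models of Orc6, Rfc2 and Rfc5 do not overlap those of their neighbours Vps35, Lat2 and Wsb2. Without M2 replicate 3 the count was 23, of which 16 were among the 17, with Gins2 lost and Dbf4, E2f8, Mcm10, Mcm5, Pola1, Prim1 and Prim2 gained.

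The authors' deposited table of their own comparison calls 18 of the 49 genes higher and 1 lower at an adjusted p under 0.05, beside 2607 higher and 2440 lower of 24421 genes. These 24421 are all genes listed there, without the filter on low values that all 49 passed. By limma on the authors' log2-scale values of 10685 genes that passed it, 24.7% were higher and 23.6% lower. In the authors' deposited table the log2 fold change of Orc2 is 0.88, that of Chek1 0.60 and that of Cdk2 -0.27. Gins2, Rfc3, Pola2 and Rfc2, called here, do not pass there (adjusted p = 0.0643, 0.0583, 0.0929 and 0.164). Mcm10, Dbf4 and Pola1, not called here, pass there as higher (adjusted p = 0.0222, 0.0470 and 0.00992).

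Other cell cycle genes were set beside the 49 from lists that share no gene with them. Over all tested genes 20.1% were higher and 23.7% lower. Of 33 further replication factors, 12 rose (36.4%) and 3 fell (9.09%), with a median log2 fold change of 0.07. Top1, encoding a topoisomerase that relieves supercoils ahead of the fork, rose by 0.56 on the log2 scale (adjusted p = 0.000509). Rnaseh2b, a subunit of the enzyme that removes ribonucleotides from DNA, rose by 0.52 (adjusted p = 0.00145). Of the other subunit genes of that enzyme, Rnaseh2c fell, with a log2 fold change of -0.31 (adjusted p = 0.0195), and Rnaseh2a stood at 0.03 (adjusted p = 0.746).

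The list of fork protection and checkpoint genes had 7 of 15 higher (46.7%), with a median log2 fold change of 0.25. By limma 0 of the 15 were lower, with 1 at an unadjusted p under 0.05 and 1 by limma-voom. Rad1, a subunit of the clamp that recruits checkpoint kinases to damaged DNA, had 36.9, 36.2 and 42.3 TPM in the M2 libraries, against 23.8, 23.8 and 23.3 TPM in the M0 libraries. The groups did not overlap and the log2 fold change was 0.68 ± 0.072 (SE, adjusted p = 0.000141). Tipin, which steadies stalled forks, rose by 0.42 on the log2 scale (adjusted p = 0.000421), and Cdc25a, the phosphatase that activates CDK2 and is itself a target of CHK1, by 0.35 (adjusted p = 0.00440).

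Of 18 regulators of the E2F and RB families and their DREAM complex partners, 8 rose (44.4%) and 4 fell (22.2%). Their median log2 fold change was 0.17. Myc, a transcription factor that promotes S-phase entry, had 29.4, 28.8 and 31.2 TPM in the M2 libraries, against 5.84, 6.71 and 6.72 TPM in the M0 libraries. All M2 libraries were far above the M0 libraries, at a log2 fold change of 2.05 ± 0.078 (SE, adjusted p = 9.07e-07). E2f5, a repressor-type E2F, rose by 0.55 on the log2 scale (adjusted p = 0.000227) and Tfdp1, the dimer partner of E2F proteins, by 0.29 (adjusted p = 0.00212).

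Deoxynucleotide supply genes rose in 6 of 11 cases (54.5%), with 1 fall (9.09%) and a median log2 fold change of 0.20. Shmt1, an enzyme of the one-carbon route that feeds thymidylate synthesis, rose by 0.37 on the log2 scale (adjusted p = 0.00546). The gene that fell was Samhd1, an enzyme that breaks deoxynucleotides down, at a log2 fold change of -0.32 (adjusted p = 0.00594).

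The mitosis and spindle genes had 3 of 27 higher (11.1%) and 6 lower (22.2%), with a median log2 fold change of -0.14. Of all tested genes 20.1% were higher and 23.7% lower, so the share lower was near that of all genes. The mitotic kinase genes Plk1 and Aurka fell, with log2 fold changes of -0.41 and -0.27 (adjusted p = 0.00107 and 0.00357), while Nuf2, a kinetochore subunit, rose by 0.30 on the log2 scale (adjusted p = 0.00423).

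Of the 12 G1 cyclin, kinase and inhibitor genes, 10 passed the filter and Cdkn2a and Cdkn2b did not. By limma 6 of the 10 fell (60.0%) and 0 rose, with 0 higher at an unadjusted p under 0.05 and 0 by limma-voom. The median log2 fold change was -0.41. Cdkn1a, encoding the CDK inhibitor p21, had 53.0, 51.1 and 49.6 TPM in the M2 libraries, against 88.5, 90.2 and 89.2 TPM in the M0 libraries. Every M2 value was far below every M0 value, at a log2 fold change of -0.79 ± 0.052 (SE, adjusted p = 1.16e-05). Cdkn2d, encoding the inhibitor p19, fell to 35.3 ± 3.50 TPM in M2, against 66.0 ± 1.21 TPM in M0 (SD, n = 3 each), a log2 fold change of -0.89 (adjusted p = 4.03e-05). Ccnd3, encoding cyclin D3, fell to 44.4 ± 3.52 TPM in M2, against 77.3 ± 2.64 TPM in M0 (SD, n = 3 each), a log2 fold change of -0.79 (adjusted p = 4.74e-05). Differences between these lists were not tested.

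**Figure D5:**
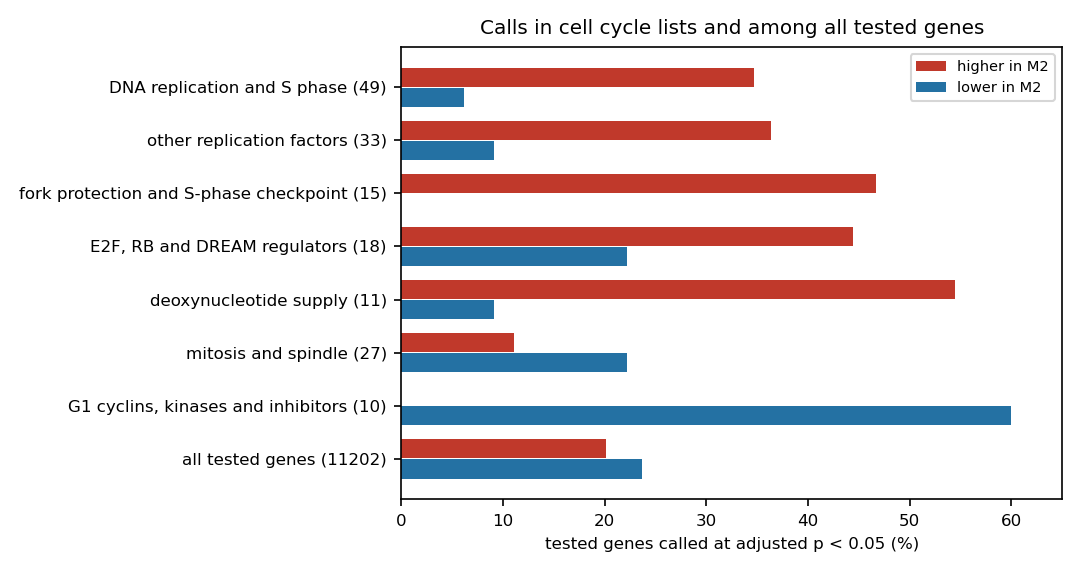
Percentage of tested genes called higher (red) or lower (blue) in M2 at an adjusted p under 0.05, for the 49 genes, 6 other cell cycle lists and all tested genes, with the number tested in parentheses. The 49 genes had 34.7% higher and 6.12% lower, beside 20.1% and 23.7% of all 11202 tested genes.

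The depth behind these values was 15615639 to 19511192 recovered reads per library, and each of the 49 genes had between 315 and 16467 reads in a library. The first principal component of all tested genes held 70.3% of the variance. Markers of the cell line's lineage were expressed: all 10 macrophage markers passed the filter, with summed levels of 3041 to 3179 TPM in M2 and 3651 to 3974 TPM in M0. The fibroblast, epithelial, T cell and B cell lists had no marker above the filter, with Krt8, Cd3g and Cd8a at 0 in every library. S100a8 among 5 neutrophil markers and Zbtb46 among 4 dendritic cell markers passed it, and the summed neutrophil level was 4.12 to 5.75 TPM in M2 and 4.50 to 5.85 TPM in M0.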

How the data were processed

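RNA sequencing libraries of 3 M2 and 3 M0 samples of RAW264.7 cells were analysed, grouped by their titles. Libraries were made from bead-selected poly(A) RNA with a NEBNext Ultra RNA kit, per the labels' protocols. Named in the submitters' processing notes, with no role, are the build mm10 and the tools DESeq2, HOMER 4.11.1, STAR 2.7.5a and bcl2fastq. For the authors' counting, the annotation, the strand setting and the handling of reads with several matches were not given in the sources used here. Per the file headers, the first deposited table holds the authors' TPM per gene and library with 1 transcript model and its length. The second deposited table holds the authors' values per library, read as log2-scale from their range since its header names no transform, and beside them the authors' adjusted and unadjusted p-value and log2 fold change of their own comparison.

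The 11202 genes that reached a TPM of 1 in 3 or more libraries were fitted by group with limma 3.58.1 in R 4.3.3 on log2(TPM + 1), two-sided, with a variance trend and Benjamini-Hochberg adjustment over all genes tested. Calls were made at an adjusted p under 0.05. A fold is the ratio of mean TPM over 3 libraries, and fold intervals are on the log2(TPM + 1) scale, which understates changes of low genes. The product of TPM and model length fell on whole steps (100.0% of values fine enough to tell, within 0.1 read), which gave the reads per library. These intervals cover the spread between libraries. The fit was also run on simulated reads with a common dispersion taken from the M0 libraries and no length trend. That simulation does not cover the length trend seen here, and its outcome is not given. Exon overlaps and near-identical transcripts (at least 95% identity over at least 300 bases) came from the GENCODE annotation and transcripts. Figures were drawn with matplotlib 3.10.9 and tables made with scipy 1.17.1, pandas 2.3.3 and numpy 2.4.6 in Python 3.11.15.

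The members and lists were chosen with earlier results of these data known. By the rule for named genes, values per library are given for the 12 called members with the largest changes, the MCM2-7 subunits and Pcna, Chek1, E2f1, Cdt1, Gmnn and Cdc6, and up to 3 called genes with the lowest adjusted p are named from each other list. One gene that this rule names is not reported here. Orc3, Orc4, Rnaseh2a, Rnaseh2c, Nif3l1, Eif4a2 and the Mcm6 promoter were added after their values were seen. The alternatives were a pseudocount of 0.1, no filter, a TPM of at least 5, median-of-ratios scaling, the authors' log2-scale values, limma-voom on recovered reads, no variance trend, a length correction, the replicate number as a block, alone and with the length correction, and leaving out each library.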

Additional observations from a re-analysis of the deposited data

How the results depend on the processing

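Over the 16 alternatives, 655 single-gene values kept their direction and their side of the threshold, 67 lost a call, 41 gained one and 21 changed sign, all 21 among genes that were not called. Members called higher and lower were 16 and 3 with a pseudocount of 0.1, beside 19.9% and 23.4% of all genes tested. With no filter they were 13 and 2, beside 10.0% and 11.8% of 19655 genes. At a TPM of at least 5 they were 17 and 4, beside 23.3% and 24.6% of 9018 genes. Median-of-ratios scaling gave 21 and 3 (24.3% and 22.3% of all genes tested). The authors' log2-scale values gave 21 and 1 (24.7% and 23.6% of 10685 genes), and limma-voom 19 and 2 (24.0% and 24.0%). Without a variance trend there were 13 and 2 (19.3% and 23.2%), and with the length correction 22 and 7 (28.7% and 26.7%). Leaving out each library in turn gave 8 to 23 higher and 1 to 3 lower, and a median log2 fold change of the 49 genes between 0.07 and 0.13, and the median was also 0.13 with median-of-ratios scaling. Over all genes tested the median was -0.03 with none of the alternatives, 0.01 with median-of-ratios scaling and -0.00 without M2 replicate 3. The cause of these differences was not tested. Under the same omissions 1646 to 2869 genes in all were higher and 1902 to 2825 lower, and 3212 and 2994 with the length correction.

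Same-numbered M2 and M0 libraries correlated at -0.03, 0.21 and 0.03 in their deviations from the group means, and M2 replicates 1, 2 and 3 correlated best with M0 replicates 2, 2 and 1. The numbers were therefore not taken as pairs. With the replicate block 14 members were higher and 3 lower (2236 and 2634 genes), and 24 and 5 with the block and the length correction (3264 and 3030 genes).

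The log2 fold changes that changed sign belong to 8 genes. Pole was at -0.13 ± 0.15 (SE) with all libraries and at 0.05 without M2 replicate 3, and the others were nearer to no change. Mcm2 was at 0.01 under median-of-ratios scaling, the authors' values, the length correction and the block with it, and at 0.0040 by limma-voom. Mcm7 was at 0.04 under median-of-ratios scaling, 0.03 with the authors' values and by limma-voom, and 0.02 with the length correction, with or without the block. Leaving out each library in turn, log2 fold changes ranged from -0.02 to 0.04 for Cdt1, -0.06 to 0.03 for Mcm2, -0.03 to 0.05 for Mcm4, -0.0043 to 0.08 for Mcm6, -0.02 to 0.03 for Mcm7, -0.23 to 0.05 for Pole, -0.12 to 0.01 for Rpa3 and -0.13 to 0.03 for Uhrf1. Orc1, at 315 to 460 reads per library, is the gene most limited by depth.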
